A study of Mus musculus with 35 samples.

Results

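Of the 17379 H3K27me3 peaks called in wild-type cranial neural crest on chromosomes 1 to 19 of the mouse, 6273 (36.1%) were narrower than 10000 bp and overlapped none of the wild-type H3K4me3 peaks. They are called H3K27me3-only peaks here. Of the other wild-type peaks, 10060 under 10000 bp overlapped an H3K4me3 peak (peaks with both marks) and 1046 were broad peaks of 10000 bp or more. The deposited table holds 37812 peaks over all chromosomes, 34080 of them on chromosomes 1 to 19. It joins the calls of pooled wild-type libraries to those of pooled female knockout libraries, and a region that both called has 2 entries.

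H3K27me3, trimethylation of lysine 27 of histone H3, is written by Polycomb repressive complex 2 and accompanies silenced genes. H3K4me3 marks the start sites of active genes and of many silent developmental genes, and promoters that hold both marks are called bivalent. UTX, encoded by the X-linked gene Kdm6a, removes methyl groups from lysine 27 and also belongs to complexes that methylate lysine 4. Regions with H3K27me3 alone lie outside that bivalent class.

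The series compared cranial neural crest with and without UTX. The female knockout (fko) was Utx fl/fl with Wnt1-Cre, the male knockout (mko) was Utx fl/y with Wnt1-Cre, and the wild type (wt) was male and carried Wnt1-Cre alone. All carried the Rosa-Tomato reporter and were taken at E12.5 (embryonic days), and Tomato-positive cells without the dead-cell dye DAPI were sorted. Wnt1-Cre acts in the neural crest and in the dorsal neural tube, so the sorted cells need not all be crest. The H3K27me3 and H3K4me3 immunoprecipitations of unfixed chromatin cut with micrococcal nuclease each comprised 3 fko, 1 mko and 3 wt libraries. UTX was mapped in 1 library of O9-1 cells, a cultured wild-type line of cranial neural crest isolated at E8.5, which was fixed first. In fko against wt, where the sexes differ, sex and genotype cannot be told apart.

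H3K27me3 reads summed over the entries on chromosomes 1 to 19 ran from 15070248 to 18248985 per library, a sum in which reads of a region with 2 entries count for both entries. H3K4me3 peaks on the Y chromosome held 0, 1 and 12 reads in the fko libraries, 3452 in mko and 1842 to 2813 in wt, which matched the labelled sexes. RNA counts over the whole of Kdm6a, which do not check the deletion of a part of the gene, were 49.7 and 62.7 CPM in fko, 39.7 and 30.8 in mko and 47.3 and 55.5 in wt (CPM, counts per 1000000 counts on genes). In the 6 RNA libraries the summed level of the 10 crest genes ran from 1709.6 to 1800.8 CPM in fko, from 1763.6 to 1930.0 in mko and from 1676.4 to 1729.9 in wt. The 5 brain and neuron genes summed to 791.5 and 855.9 CPM in fko, 578.4 and 961.0 in mko, and 1192.7 and 1238.1 in wt, with none under 1 in every library. Most of that sum was Tubb3, and other genes of the list stood further apart. Otx2 had 9.39 and 11.6 CPM in fko, 11.6 and 10.6 in mko and 27.5 and 30.4 in wt, Olig2 2.21 and 2.21 in fko, 3.80 and 2.87 in mko and 9.40 and 10.4 in wt, and Sox2 23.2 and 28.4 in fko, 25.1 and 30.7 in mko and 43.1 and 59.4 in wt. Any part that these crest and brain genes had in the chromatin differences below was not tested. The 4 blood, 3 endothelial, 3 epithelial and 3 muscle markers each summed to at most 10.5 CPM in any library.

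The H3K27me3-only peaks were small and shallow. Their median width was 1138 bp (quartiles 654 and 1936 bp, range 315 to 9763 bp), against 2821 bp for peaks with both marks and 14694 bp for broad peaks. Together they covered 9.72 Mb, against 33.9 Mb for peaks with both marks. Their median −log10 q, the peak caller's confidence as deposited, was 1.79 with a range of 1.14 to 34.8, against 5.37 for peaks with both marks and 32.2 for broad peaks. The median over peaks of the mean read count per library was 32.6, against 145 for peaks with both marks. Per length, the median density over all 7 libraries was 1.80 RPKM, that is, reads per kb of peak and per 1000000 of the library's summed reads given above, against 2.97 and 10.1 in the other classes. Because reads of regions with 2 entries are in that sum for both, these values are lower than a density per read in peaks would be. They are relative to the reads of the same library, since no outside standard was used, and fewer cells with the mark cannot be told apart from less of the mark per cell. In these bulk libraries that holds for every difference reported here.

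They made up between 30.3% of the wild-type peaks on chromosome 10 and 39.9% on chromosome 16. Chromosome 2 had the most, 576, and chromosome 16 the fewest, 210. The median distance to the nearest wild-type H3K4me3 peak was 5.43 kb, and 1232 of the peaks (19.6%) lay within 1 kb of one. The nearest other wild-type H3K27me3 peak was a median of 5.58 kb away, against 20.3 kb for peaks with both marks. A broad peak lay within 10 kb of 587 H3K27me3-only peaks (9.36%), against 3.22% of peaks with both marks. Joining consecutive wild-type peaks that were all H3K27me3-only and no more than 10 kb apart left 4046 single peaks and 946 runs of 2 or more, which held 2227 peaks. Only 19 runs had 5 or more.

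The longest run held 8 H3K27me3-only peaks at chr1:187774485-187816303, with a summed width of 15.0 kb in a span of 41.8 kb. Its reads summed to 556, 537 and 507 in fko, 580 in mko and 541, 532 and 525 in wt. The fko and wt values overlapped. A run of 7 peaks lay at chr4:61505782-61537489, with 359, 389 and 372 reads in fko, 287 in mko and 376, 373 and 340 in wt. A run of 6 peaks lay at chr15:102600098-102646339, with 447, 431 and 477 reads in fko, 492 in mko and 497, 562 and 539 in wt. In the run of 6 the unscaled counts of all fko libraries were below those of all wt libraries. Scaled by the library's summed reads the groups overlapped. The fko library with 477 reads had 15739869 summed reads, and the wt library with 497 had 16666988.

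Levels varied little among the peaks. The density of 6124 of them (97.6%) lay within 2-fold of the median, and only 7 had more than 10 times the median. The 4 densest were also those with the most reads. The densest, chr3:5860425-5860995, was 571 bp wide and had 3430, 3388 and 3161 reads in fko, 3066 in mko and 2895, 2711 and 2443 in wt, a mean density of 312 RPKM. The next, chr5:147072463-147072895 and chr9:123370848-123371377, had mean densities of 196 and 194, and chr16:57391435-57392399 had 111. The −log10 q of these 4 peaks was, in the same order, 5.36, 1.69, 1.63 and 3.78, so the densest peaks were not those of the highest confidence. Input reads at these peaks were not examined, so a high background there was not tested. All 4 stood higher in every fko than in every wt library as density, and their fitted log2 fold changes of fko against wt ran from 0.17 to 0.27.

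At the edges of the selection, the widest H3K27me3-only peaks spanned 9763 bp (chr9:85692180-85701942) and 9712 bp (chr5:137138332-137148043), and the narrowest excluded for width spanned 10003 bp (chr9:98565797-98575799) and 10067 bp (chr12:58130756-58140822). Mean densities were 2.76 and 1.82 inside that limit and 2.77 and 2.75 outside it. The nearest wild-type H3K4me3 peaks were 2 bp from chr12:96592402-96593149 and 3 bp from chr13:46628848-46629230, with mean densities of 1.37 and 2.32. Peaks at chr1:37086925-37087587 and chr8:93712638-93714652 were excluded for an overlap of 1 bp, with mean densities of 2.08 and 2.22.

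The first comparison was of the knockouts with wild type, the question being whether loss of a lysine 27 demethylase changes the mark where H3K4me3 is absent. The peaks were chosen from calls on the wild-type libraries, which are also one side of this contrast, so a lower level in the knockout is favoured by the choice and the values are a description. For the same reason the 5970 fko peaks under 10000 bp without an fko H3K4me3 peak, chosen in the mirrored way, are given beside them as fko counterparts.

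The median density of H3K27me3-only peaks was 1.61, 1.67 and 1.72 RPKM in the fko libraries, 1.69 in mko and 1.90, 1.98 and 1.99 in wt. Every knockout library lay below every wt library. In the fko counterparts the median was 1.88, 1.95 and 2.00 in fko, 1.81 in mko and 1.80, 1.89 and 1.90 in wt, where the groups overlapped. H3K27me3-only peaks held 3.74%, 3.87% and 3.97% of the fko reads that fell in wild-type peaks, 3.91% of those in mko and 4.20%, 4.34% and 4.34% of those in wt. In peaks with both marks the median density was 2.91 to 3.01 in fko, 2.99 in mko and 3.0 to 3.10 in wt. In broad peaks it was 9.96 to 10.1 in fko, 10.1 in mko and 10.1 to 10.2 in wt.

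**Figure D1:**
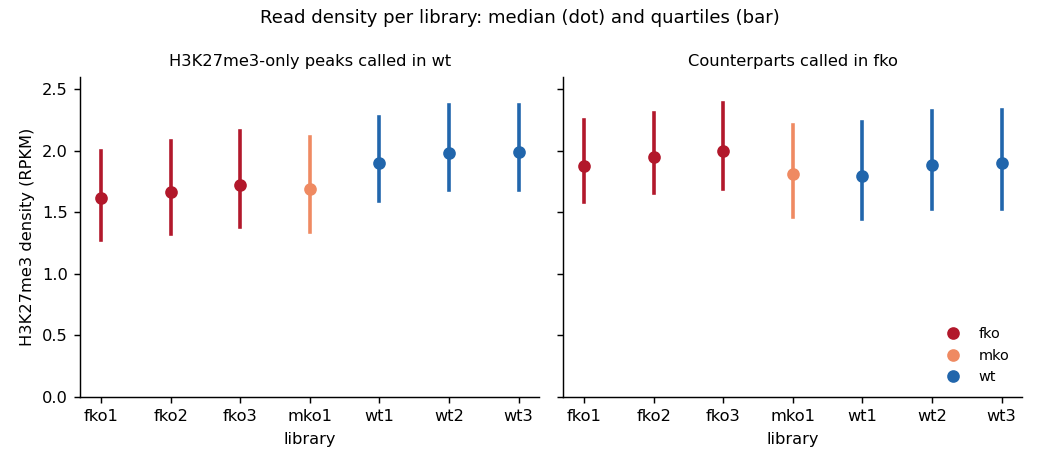
Median density of H3K27me3 reads (RPKM, dots) with quartiles (bars) in each library, for H3K27me3-only peaks called in wt (left) and for the fko counterparts (right). On the left the fko medians of 1.61 to 1.72 and the mko median of 1.69 lie below the wt medians of 1.90 to 1.99, and on the right the fko medians of 1.88 to 2.00 overlap the wt medians of 1.80 to 1.90.

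Fitted over all 33893 peaks that passed the filter on low counts, 126 H3K27me3-only peaks were called higher and 753 lower in fko than in wt, of 6174 that passed the filter (edgeR quasi-likelihood test, Benjamini-Hochberg adjusted p under 0.05). That is 14.2% called, against 25.8% of all peaks, and 2.04% higher and 12.2% lower, against 13.9% and 11.9% of all peaks. The remaining 99 of the 6273 did not pass the filter. The share of calls that were higher was 14.3%, and it was 24.5% with DESeq2, 25.3% when only wild-type calls were fitted and 8.51% when scaled by totals only. DESeq2 called 200, having set an adjusted p for 2351 of these peaks, among which edgeR called 477. Over all peaks the share of calls that were higher was 53.9%, and 39.1% when scaled by totals only. Without adjustment 1559 had an edgeR p under 0.05. Only 2 of the higher calls and 112 of the lower calls reached 2-fold. The replicate libraries differed by little more than counting noise, and the labels do not say that they came from separate embryos, so p-values measure the spread between these libraries, which may be technical.

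The median log2 fold change of fko against wt was -0.18 over the H3K27me3-only peaks tested, 0.09 over the fko counterparts, -0.03 over peaks with both marks and 0.05 over broad peaks. Over all peaks tested it was 0.00 to 2 decimals. Of the H3K27me3-only peaks tested, 74.7% had a negative fold change, against 36.7% of the fko counterparts and 49.8% of all peaks. The fko counterparts had 454 calls higher and 202 lower of 5915 tested. Each set thus stood higher in the genotype in which it had been called. Libraries were also compared peak by peak, in counts scaled by the library totals and TMM factors of the fit to all 7 libraries. All 3 fko libraries lay below all 3 wt libraries in 1463 H3K27me3-only peaks (23.3%), against 17.8% of all peaks. They lay above them in 260 (4.14%), against 19.3% of all peaks. In the fko counterparts those shares were 6.87% and 16.1%.

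**Figure D2:**
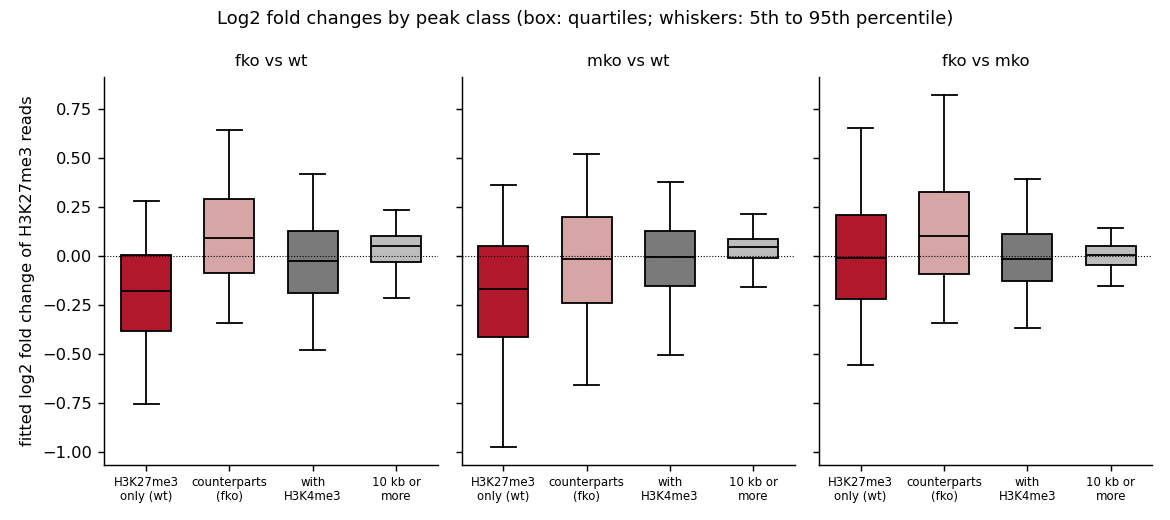
Fitted log2 fold changes of H3K27me3 reads in fko against wt, mko against wt and fko against mko, for H3K27me3-only peaks called in wt, their fko counterparts, peaks with both marks and broad peaks of 10 kb or more. Boxes show quartiles and medians and whiskers the 5th to 95th percentiles over peaks. The H3K27me3-only box is centred at -0.18, -0.17 and -0.01 in the 3 comparisons, and that of the fko counterparts at 0.09, -0.01 and 0.10.

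The mko library, whose sex is that of wt, gave a median log2 fold change of -0.17 against wt over the H3K27me3-only peaks (-0.09 with limma-voom under cyclic loess scaling) and -0.01 over the fko counterparts. Against wt, 39 H3K27me3-only peaks were called higher and 195 lower in mko of 6272 tested (3.73%), against 6.94% of all peaks (4.28% higher and 2.66% lower, edgeR). DESeq2 called 8 higher and 15 lower, with an adjusted p for 676. This contrast rests on 1 mko library, assumed to vary like the other groups, and shares its wt libraries with the fko contrast. By the same scaled counts, mko lay below all 3 wt libraries in 2748 H3K27me3-only peaks (43.8%), against 30.5% of all peaks. It lay above all 3 in 978 (15.6%), against 31.6% of all peaks.

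Median fold changes were lower at weaker and narrower calls, while the share called lower ran the other way. The peaks were ranked by −log10 q into 4 groups of equal size. In the lowest (1.14 to 1.45) the median log2 fold change of fko against wt was -0.23, and it was -0.18, -0.17 and -0.15 in the next 3. The share of tested peaks called lower was 8.63%, 8.82% and 11.2% in the first 3 groups. In the highest group it was 19.97% (313 of 1567). The shares called higher were 0.654%, 1.24%, 2.07% and 4.15% in the same order. Of all peaks tested, 11.9% were called lower and 13.9% higher. Only the highest group exceeded that share called lower, and no group reached that share called higher. Under 1 kb of width the median was -0.26. It was -0.15 from 1 to 2 kb, -0.13 from 2 to 4 kb and -0.11 from 4 to 10 kb. In these width classes 8.86%, 10.3%, 18.9% and 26.0% were called lower, and 1.05%, 2.14%, 3.45% and 4.29% higher. The corresponding mko medians by width were -0.27, -0.15, -0.09 and -0.07. The median standard error of a single peak was 0.28 under 1 kb and 0.09 from 4 to 10 kb.

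The 4 H3K27me3-only peaks with the smallest p among those higher in fko, with no overlap between groups, went against the direction that the choice favours. Reads at chr17:35642204-35646226 numbered 749, 652 and 594 in fko, 589 in mko and 399, 396 and 377 in wt (log2 fold change of fko against wt 0.72, SE 0.055). Reads at chr6:99098102-99106867 numbered 544, 509 and 456 in fko, 506 in mko and 342, 354 and 299 in wt (0.56, SE 0.061). Both were also the calls of smallest p among those higher in mko, with log2 fold changes of 0.52 and 0.54 against wt. Reads at chr4:129710816-129713268 numbered 194, 214 and 201 in fko, 192 in mko and 97, 111 and 105 in wt (0.91, SE 0.100), and in mko against wt the value was 0.81. In these 3 peaks the mko library lay above every wt library. The fourth was the densest peak described above, at 0.27 (SE 0.031).

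Of the 4 with the smallest p among those lower in fko, 3 lay on chromosome 17 between 35 and 37 Mb, a segment of the major histocompatibility complex. Reads at chr17:36314948-36322064 numbered 455, 458 and 403 in fko, 725 in mko and 738, 844 and 730 in wt (-0.86, SE 0.052). Reads at chr17:36265761-36269054 numbered 61, 58 and 47 in fko, 141 in mko and 174, 183 and 155 in wt (-1.67, SE 0.122). At both of these peaks mko had a density between those of fko and wt. Reads at chr17:35492435-35497161 numbered 202, 205 and 170 in fko, 290 in mko and 343, 347 and 323 in wt (-0.86, SE 0.076). Of the 15 H3K27me3-only peaks in that segment 1 was called higher and 11 lower in fko, and without the segment 125 were higher and 742 lower with a median of -0.18. Per chromosome, the share called lower ran from 7.99% on chromosome 3 to 18.9% on chromosome 17.

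The other of these 4 was low in both knockouts. Reads at chr4:108652859-108656075 numbered 30, 33 and 42 in fko, 38 in mko and 169, 148 and 142 in wt, and no fko H3K27me3 peak overlapped it. The log2 fold change was -2.17 (SE 0.141) in fko and -2.08 (SE 0.205) in mko against wt. Reads at chr9:119371447-119372817 numbered 24, 27 and 23 in fko, 5 in mko and 92, 85 and 88 in wt, with log2 fold changes of -1.88 (SE 0.177) in fko and -4.18 (SE 0.389) in mko. Reads at chr19:44604457-44607787 numbered 146, 153 and 121 in fko, 86 in mko and 215, 227 and 210 in wt, with log2 fold changes of -0.68 (SE 0.091) and -1.41 (SE 0.150). In these 3 peaks every knockout library was below every wt library.

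**Figure D3:**
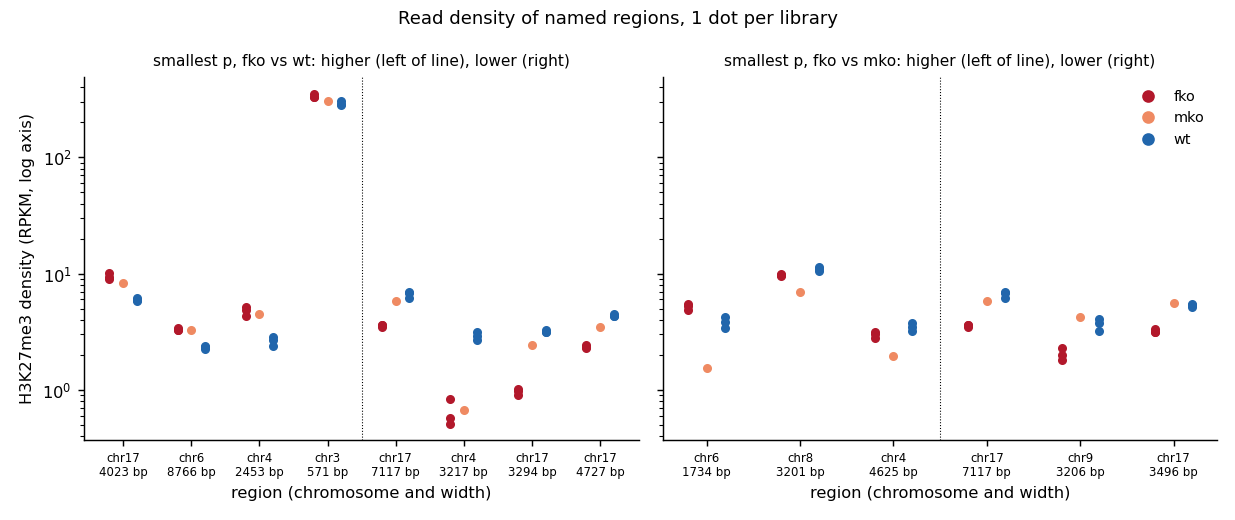
H3K27me3 read density (RPKM, log axis) in each library at the H3K27me3-only peaks of smallest p in fko against wt (left panel) and in fko against mko (right panel), 1 dot per library, each region labelled by chromosome and width. In the left panel mko sides with fko at the region of chr6 and at both regions of chr4, and lies between fko and wt at the 3 lower regions of chr17.

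The second comparison, fko against mko, was the one in which neither side had entered the calls that chose the peaks, and it set the female against the male knockout. Over 6272 H3K27me3-only peaks tested the median log2 fold change was -0.01, with a median standard error per peak of 0.30, against 0.10 over the fko counterparts and 0.01 over all peaks. The fko counterparts were called on fko, which is one side of this contrast, so a higher value there is favoured by the choice. Of the H3K27me3-only peaks, 25 were higher and 26 lower in fko (edgeR adjusted p under 0.05), or 0.813% against 2.84% of all peaks (1.41% higher and 1.43% lower). The split moved with the fit. A limma-voom fit gave 18 higher and 33 lower, and under cyclic loess scaling 17 and 36. Without fko replicate 2 there were 14 higher and 23 lower, and without fko replicate 3 there were 20 and 17. Without adjustment 476 had an edgeR p under 0.05, and DESeq2 called 3 higher and 6 lower, with an adjusted p for 889. In all 25 the 3 fko libraries lay above the mko library, and in all 26 they lay below it. The calls rest on this same difference, so these sides are favoured by the choice. Over all peaks the mko library lay below all fko libraries in 30.0% and above them all in 28.3%. The mko side is 1 library, assumed to vary like the others.

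The peaks that were higher in fko than in mko were narrower, with a median width of 1308 bp and a median of the mean count of 49.1 reads, against 3250 bp and 146 reads for those that were lower. In the 25 higher peaks the mko library was below all wt libraries in 23, and the fko libraries were all below wt in 7 and all above wt in 4. Their median log2 fold change against wt was -0.05 in fko and -1.03 in mko. In the 26 lower peaks the fko libraries were all below wt in 23, and the mko library was below all wt libraries in 6 and above them in 8. Their median against wt was -0.58 in fko and 0.07 in mko. Over all peaks the fko libraries were all below wt in 17.8% and all above wt in 19.3%. The mko library was below all wt libraries in 30.5% of all peaks and above them in 31.6%. Both sets were chosen for a difference between fko and mko, which favours such sides, so these values are a description.

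Of those that were higher in fko, reads at chr6:125322373-125324106 numbered 155, 169 and 145 in fko, 47 in mko and 111, 124 and 90 in wt (fko against mko 1.76, SE 0.192, edgeR adjusted p = 8.24e-17). Here mko was the lowest library and all fko libraries lay above wt. At chr8:122420741-122423941 they numbered 561, 554 and 503 in fko, 392 in mko and 604, 597 and 511 in wt (0.49, SE 0.083, edgeR adjusted p = 1.65e-06). At chr4:43673528-43678152 they numbered 255, 262 and 204 in fko, 159 in mko and 266, 297 and 225 in wt (0.62, SE 0.124, edgeR adjusted p = 9.93e-05). In these regions too mko was the lowest library.

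Of those that were lower in fko, the one of smallest p was again chr17:36314948-36322064 (-0.70, SE 0.073, edgeR adjusted p = 2.42e-18). At chr9:59448900-59452105 reads numbered 135, 114 and 92 in fko, 236 in mko and 200, 221 and 155 in wt (-1.03, SE 0.129, edgeR adjusted p = 2.03e-12). At chr17:35529571-35533066 they numbered 215, 195 and 173 in fko, 345 in mko and 316, 326 and 270 in wt (-0.80, SE 0.104, edgeR adjusted p = 1.00e-11). In both, the mko density was above that of every wt library and the fko densities were below. The segment of chromosome 17 held 4 of the 26, and outside it 25 were higher and 22 lower.

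In 1 of the 25 higher peaks, chr11:77319969-77320653, singled out after its values were seen, mko had 0 reads, against 8, 19 and 15 in fko and 21, 32 and 32 in wt. Against a floor of 3 reads in the mko library, which covers counting error only, the fko mean was at least 4.77-fold higher. In all, 2 H3K27me3-only peaks had no mko read, and none had no read in all fko or in all wt libraries.

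As a description of likeness over the 6273 peaks, log2 densities correlated at 0.72 to 0.73 between fko libraries and at 0.70 to 0.71 between fko and mko libraries. Between wt libraries the correlation was 0.64 to 0.66 and between knockout and wt libraries 0.60 to 0.62. The libraries share the same peaks and their widths, and the peaks were chosen on wt.

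The third question was how many of these peaks were called again in the knockout. An fko H3K27me3 peak overlapped 4001 of the 6273 by at least 1 bp (63.8%, exact 95% interval 62.6 to 65.0%), against 93.5% of peaks with both marks and 100% of broad peaks. The share grew with confidence in the wild-type call. It was 34.3%, 54.8%, 74.0% and 92.0% in the 4 groups from the lowest to the highest −log10 q. By width it was 45.0% under 1 kb, 69.1% from 1 to 2 kb, 88.8% from 2 to 4 kb and 98.9% from 4 to 10 kb. With an overlap of at least 50% of the peak it was 52.0%.

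The 2272 peaks without an fko H3K27me3 peak had a median log2 fold change of -0.40 in fko against wt, so reads were still present there. The fko level decides both whether an fko peak is called and this fold change, so a lower value without an fko peak is set by the split and is a description. Of the 2181 tested 420 were called lower (19.3%) and 1 higher (0.046%). Of the 3993 tested with an fko peak, whose median was -0.09, 333 were called lower (8.34%) and 125 higher (3.13%). Over all peaks 11.9% were called lower and 13.9% higher. The mko library was used in neither list of calls. In mko against wt the median was -0.35 for peaks without an fko peak, against -0.09 for those with one. The wt side of that contrast did enter the calls, and peaks without an fko peak were more often weak wt calls. A lower mko value is thus favoured too, and these values are a description. In fko against mko the medians were -0.06 without and 0.00 with an fko peak. For the fko counterparts the mirrored values of fko against wt were 0.36 in the 1461 without a wild-type peak and 0.02 in the 4509 with one.

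UTX overlapped few of these peaks. Of the 6273, 168 (2.68%, exact 95% interval 2.29 to 3.11%) overlapped a UTX peak of the O9-1 line, against 27.3% (26.4 to 28.2%) of peaks with both marks and 41.2% (38.2 to 44.3%) of broad peaks. The intervals did not overlap. Intervals cover counting error only. In matched width classes the shares were 2.75% against 23.8% under 1 kb, 2.34% against 24.5% from 1 to 2 kb, 2.74% against 26.3% from 2 to 4 kb and 3.75% against 31.5% from 4 to 10 kb, so the shares differed within every width class. The median distance to the nearest UTX peak was 58.2 kb, against 21.7 kb for peaks with both marks. UTX was mapped in cultured cells of an earlier stage and in wild-type cells only.

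**Figure D4:**
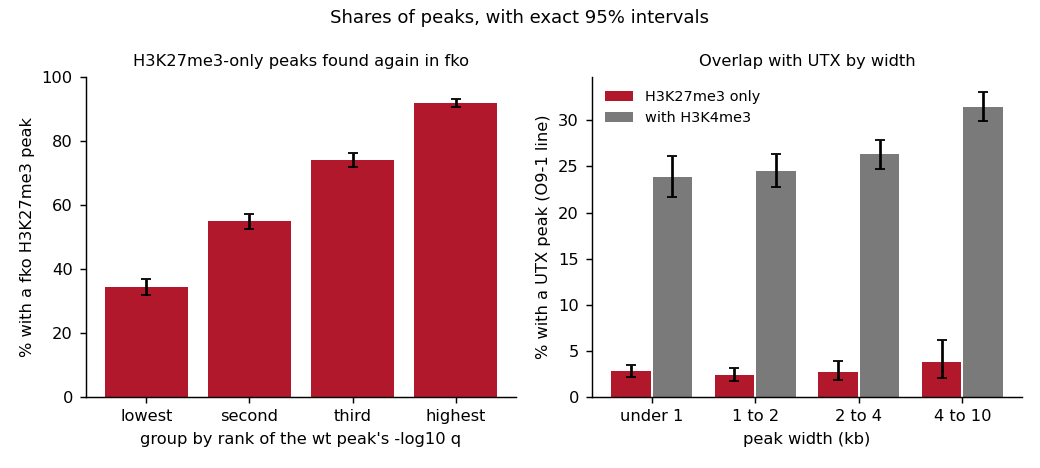
Left, share of H3K27me3-only peaks that overlap an fko H3K27me3 peak, in the 4 groups by −log10 q of the wild-type call, 34.3% in the lowest and 92.0% in the highest. Right, share that overlap a UTX peak of the O9-1 line by width, 2.34% to 3.75% for H3K27me3-only peaks against 23.8% to 31.5% for peaks with both marks. Lines are exact 95% intervals.

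Seen from the other side, 162 of the 21656 UTX peaks (0.748%) lay in H3K27me3-only peaks, while 13449 (62.1%) lay over a wild-type H3K4me3 peak. Of the 162, 76 also touched an H3K4me3 peak beside the H3K27me3-only peak. Their median fold enrichment in the authors' deposited list was 2.17, against 2.09 for all UTX peaks. The 168 H3K27me3-only peaks with UTX had 8 calls higher and 21 lower in fko against wt (17.3% called, against 25.8% of all peaks) and a median log2 fold change of -0.15. In fko against mko their median log2 fold change was -0.05.

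Among the UTX peaks that lay in H3K27me3-only peaks, those of highest score in the authors' deposited list (194, 143 and 129, with fold enrichments of 7.03, 5.40 and 4.96) overlapped chr3:96483050-96485209, chr12:113755179-113756408 and chr11:95876872-95877970. Reads of H3K27me3 at the first were 70, 56 and 59 in fko, 80 in mko and 79, 90 and 64 in wt. At the second they were 47, 39 and 47 in fko, 41 in mko and 28, 43 and 45 in wt. At the third they were 34, 40 and 43 in fko, 38 in mko and 38, 46 and 40 in wt. As density the fko and wt values overlapped in the last 2, while at the first every fko library was below every wt library (-0.38, SE 0.146). The densest H3K27me3-only peak, on chromosome 3, also overlapped a UTX peak, over 455 of its 571 bp.

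The last question was whether H3K4me3 was called in the knockout at peaks chosen for lacking it. An fko H3K4me3 peak overlapped 261 of the 6273 (4.16%, exact 95% interval 3.68 to 4.68%), by at least 50% of the H3K27me3-only peak in 0.319%. A total of 265 fko H3K4me3 peaks were involved, of which 198 overlapped no wild-type H3K4me3 peak at all. The other peaks reached a wild-type H3K4me3 peak outside the H3K27me3-only peak. The median reads of the 198 were 22, 21 and 22 in fko, 23 in mko and 13, 13 and 17 in wt.

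These H3K4me3 peaks were called in fko and not in wt at the same place, so a higher level in fko is favoured by the choice. Of the 258 that passed the filter, 82 were called higher and 6 lower (34.1%), against 57.4% of all H3K4me3 peaks tested (24.8% higher and 32.5% lower, edgeR). Of all 2929 fko H3K4me3 peaks that overlapped no wild-type H3K4me3 peak, 2759 were tested, of which 741 were higher and 2 lower (26.9%), and of the 198 here 191 were tested, of which 54 were higher (28.3%). The H3K27me3-only peaks that overlapped them had 26 H3K27me3 calls higher and 26 lower in fko against wt of 260 tested (10.0% each), against 13.9% and 11.9% of all peaks, with a median log2 fold change of -0.08. The share with an fko H3K4me3 peak was 2.10% in the group of lowest −log10 q of H3K27me3 and 8.93% in that of the highest. The direction over all H3K4me3 peaks moved with the scaling. The share of calls that were higher was 43.3% in the main analysis, 58.2% with DESeq2, 53.4% with cyclic loess and 21.8% with totals only, a scaling that put the median log2 fold change of all H3K4me3 peaks at -0.20, against -0.08 in the main analysis. In the H3K27me3-only peaks it was 93.2%, 97.1%, 99.4% and 87.3% under the same settings.

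The fko H3K4me3 peak of smallest p spanned 1925 bp and reached 95 bp into chr2:154845939-154846739. It had 1302, 1043 and 1115 H3K4me3 reads in fko, 1206 in mko and 184, 151 and 251 in wt (log2 fold change of fko against wt 2.35, SE 0.063). H3K27me3 in that region was higher too, with 49, 49 and 43 reads in fko, 66 in mko and 24, 24 and 32 in wt (0.77, SE 0.203). At chr18:43636912-43638717 an fko H3K4me3 peak of 808 bp lay wholly inside the H3K27me3-only peak, with 126, 127 and 132 H3K4me3 reads in fko, 144 in mko and 6, 5 and 6 in wt (4.26, SE 0.242). H3K27me3 reads there were 148, 156 and 159 in fko, 199 in mko and 108, 115 and 110 in wt (0.43, SE 0.106). In both regions both marks stood higher in all 4 knockout libraries than in any wt library, as RPM, reads per 1000000 of the library's reads summed over the entries for that mark.

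At chr17:35492435-35497161, in the segment of chromosome 17, the marks moved in opposite directions. H3K4me3 reads in an 825 bp fko peak numbered 189, 149 and 130 in fko, 197 in mko and 28, 20 and 33 in wt (2.31, SE 0.162), while H3K27me3 was at -0.86 as given above. At chr7:111649813-111650944 a 596 bp fko peak had 145, 114 and 113 H3K4me3 reads in fko, 196 in mko and 10, 11 and 28 in wt (2.70, SE 0.195). H3K27me3 there numbered 111, 91 and 92 reads in fko, 123 in mko and 109, 95 and 98 in wt (-0.08, SE 0.121), where the fko and wt densities overlapped.

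**Figure D5:**
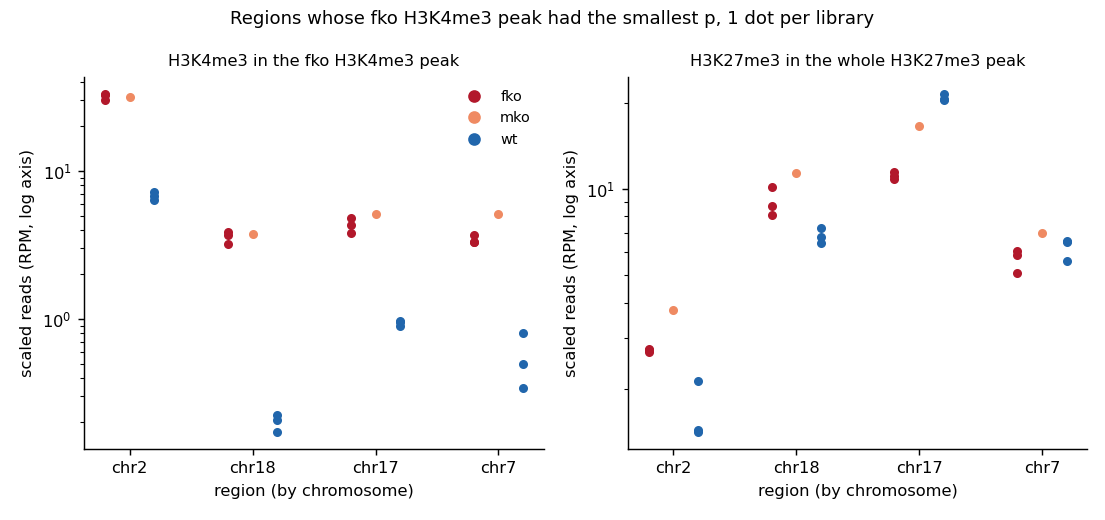
Scaled reads (RPM, log axes) in each library at the 4 H3K27me3-only peaks whose fko H3K4me3 peak had the smallest p, labelled by chromosome, 1 dot per library. Left, H3K4me3 in the fko H3K4me3 peak, where the fko and mko libraries all lie above wt. Right, H3K27me3 in the whole H3K27me3-only peak, higher in the knockouts on chromosomes 2 and 18, lower in fko on chromosome 17 and overlapping on chromosome 7.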

How the data were processed

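H3K27me3 and H3K4me3 chromatin immunoprecipitation sequencing was analysed in 7 libraries per mark, UTX in 1, and RNA in 6, of 35 samples listed. The submitters' processing notes name Bowtie2, TopHat2, HTSeq, MACS2, Trimmomatic, SAMtools and bedtools, with versions not given in the sources used here, and build mm9. The deposited tables give unnormalized counts of reads in each broad peak, called with MACS2 on pooled wt and on pooled fko libraries, and raw RNA counts per gene. The deposited peak lists give −log10 q values, and the deposited UTX list a score, a fold enrichment ratio and read counts per peak. The fold and −log10 p columns of the H3K27me3 lists hold values that neither can take and were not used.

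Coordinates are 1-based on mm9. No genome or annotation of that build was used, so no gene is given to a peak and no sequence is printed. Peaks on chromosomes 1 to 19 were tested with edgeR 4.0.16 in R 4.3.3 (quasi-likelihood F test, TMM factors, filterByExpr, Benjamini-Hochberg adjustment over all peaks of the mark, threshold 0.05). Fko against wt used 6 libraries, and mko against wt and fko against mko used all 7. SE is that of the log2 fold change, taken from the F statistic. DESeq2 1.42.0, limma 3.58.1 (voom), other scalings, filters, overlap rules and left-out libraries served as alternatives. Overlaps (at least 1 bp) were computed in Python 3.11.15 with numpy 2.4.6 and checked on intervals with known answers, intervals of shares with scipy 1.17.1 (Clopper-Pearson), and plots with matplotlib 3.10.9. The fits were tested on simulated data.

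Regions named are those with the smallest p per direction and contrast (with no overlap between groups in fko against wt), the densest, those at the strongest UTX peaks and fko H3K4me3 peaks, the longest runs, and those at the limits of the selection. The peaks and lists were chosen with earlier results of these data known. Replicate pairs had a chi-square of 1.05 to 1.19 per degree of freedom in H3K27me3 and 1.10 to 1.43 in H3K4me3. Each replicate entered the fits as a library of its own. Whether replicates came from separate embryos is not given by the labels and not settled by these values.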

Additional observations from a re-analysis of the deposited data

Results flagged for a closer look

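Differences between the 2 knockouts in H3K27me3-only peaks were picked out for a closer look, since both were set against the same wild type and a test of fko against mko is a test of the difference itself. Of the 6272 peaks tested 51 passed (edgeR adjusted p under 0.05). The 3 of smallest p that were higher in fko than in mko were chr6:125322373-125324106 at a log2 fold change of 1.76, chr4:43673528-43678152 at 0.62 and chr8:122420741-122423941 at 0.49. The 3 of smallest p that were lower were chr9:59448900-59452105 at -1.03, chr17:35529571-35533066 at -0.80 and chr17:36314948-36322064 at -0.70. In each the 3 fko libraries lay on one side of the single mko library, which a choice by smallest p favours. Sex, the embryos used and the single mko library cannot be told apart from genotype in this contrast.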

How the results depend on the processing

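DESeq2 called 4888 of all peaks in fko against wt in place of 8729, and of the H3K27me3-only peaks 200 in place of 879 (49 higher and 151 lower), 23 in place of 234 in mko against wt and 9 in place of 51 in fko against mko. It sets no adjusted p for peaks of low count, and all of its calls in H3K27me3-only peaks were also edgeR calls. Fitting wild-type calls alone gave 4612 calls over all peaks, and 190 higher calls and a median log2 fold change of -0.13 in H3K27me3-only peaks. Scaling by totals put that median at -0.22. Keeping only the 312 peaks with −log10 q of at least 5 left 129 calls (24 higher and 105 lower), which is 41.3% of them against 14.2% of all H3K27me3-only peaks tested, and a median of -0.14. With a limma-voom fit under cyclic loess scaling, chosen after the data were seen, 175 of the fko H3K4me3 peaks in H3K27me3-only peaks were called, against 88. Leaving out 1 fko or wt library gave 623 to 764 calls in fko against wt, 168 to 247 in mko against wt and 37 to 59 in fko against mko, with a median in fko against wt of -0.20 to -0.17.

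The share with an fko H3K27me3 peak, 63.8%, became 52.0% when 50% of the peak had to be covered, 4.72% with fko peaks of −log10 q of at least 5, 99.0% for wild-type calls of at least 5, and 62.1% for those at least 1 kb from H3K4me3. The share with UTX, 2.68%, became 1.66%, 0.430%, 3.53% and 1.92% in that order, and the share with an fko H3K4me3 peak, 4.16%, became 0.319%, 2.71%, 15.7% and 3.59%. The cause was not tested. Alternatives were run for 20 pairs of a region and a contrast, those of smallest p. All 266 values kept their direction and stayed past the threshold, and DESeq2 set no adjusted p for 2 more in mko against wt. The other named regions were not refitted. In H3K27me3 replicate numbers did not pair the libraries (correlations of deviations of 0.003 to 0.020 for same numbers and -0.023 to 0.020 for different numbers). In H3K4me3 they were 0.026 to 0.258 for same numbers and -0.201 to 0.122 for different numbers, so pairing there is not settled. A replicate block gave 883 calls against 879 in H3K27me3-only peaks, and 91 against 88 in the fko H3K4me3 peaks that overlap them. Counting noise limits single peaks, whose median count was 32.6 reads.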
